A study of Mus musculus with 2 samples.

Results

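Elastic fibre and microfibril genes are 10 genes whose proteins build or assemble the elastic part of the extracellular matrix: the fibrillin genes Fbn1 and Fbn2, the microfibril-associated genes Mfap2, Mfap4 and Mfap5, the elastin gene Eln, the fibulin genes Fbln2 and Fbln5, Emilin1 and the lysyl oxidase gene Lox. They were chosen by name for their place in this matrix, and all 10 were found among the 16881 transcripts of the deposited table. RNA was sequenced from cultured mouse embryonic fibroblasts (MEFs) that had been immortalised, of the C57BL/6 strain, in 1 library of the p65-/- genotype (p65-null) and 1 library of the p65+/+ genotype (p65 wild-type). p65, encoded by Rela, is a DNA-binding subunit of NF-kB, and the study asked which genes are expressed differently without it. The labels name no stimulus. How the cells were immortalised, how the allele was made and whether a line is 1 clone is stated in none of the sources used here. Each genotype has 1 library, so the differences below have no replicate behind them and are given without p-values. In bulk RNA of this kind, fewer cells with a transcript and less of it per cell cannot be told apart.

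Elastic fibres form in steps. Fibrillins polymerise into beaded microfibrils, with which small microfibril-associated glycoproteins combine, and tropoelastin is then laid onto this scaffold, guided by fibulins and EMILIN-1 and cross-linked by lysyl oxidases. Fibroblasts and smooth muscle cells make most of these proteins, and fibrillin-2 is best known as a fibrillin of the embryo. Microfibrils also hold latent TGF-beta and BMPs in the matrix, so that the same genes are tied to growth factor storage.

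The p65-null library held 15441396.5 fragments and the p65 wild-type library 20794475.5, a mate without its partner counting as 0.5. Levels are normalised CPM, the usual measure of fragments relative to library size, with library sizes adjusted by edgeR's trimmed mean of M values. A ratio divides the p65-null level by the wild-type level, with a 95% Clopper-Pearson interval that covers counting error only. Rela was at 13.1 CPM in p65-null MEFs and 90.5 CPM in wild-type MEFs, 6.90-fold lower (5.96 to 8.03). The lines also differed in sex-linked genes and at a locus often lost when MEFs are immortalised: Xist had 2 fragments in p65-null MEFs and 956 in wild-type MEFs, the Y-linked gene Kdm5d 207 and 0, and the tumour suppressor gene Cdkn2a 3 and 1693.5. Line of origin and p65 genotype therefore cannot be told apart in any ratio below. All 10 fibroblast markers looked up, such as Col1a1, Vim and Pdgfra, were measured in both lines. Of the other cell types looked up, the 6 smooth muscle and myofibroblast markers summed to 3567 CPM in p65-null MEFs and 3472 CPM in wild-type MEFs, and the 4 cartilage markers in the table to 147 and 67.8 CPM. Lower sums were found for 4 leukocyte markers, at 9.51 and 20.6 CPM, 4 endothelial markers, at 2.18 and 3.40 CPM, and 5 epithelial markers, at 2.61 and 0.118 CPM. Ptprc of leukocytes had 0 p65-null and 2 wild-type fragments, Cdh5 of endothelium 0 and 1, and Epcam of epithelium 1 and 0. Other genes of these lists were detected, the highest being Cd14 with 66.5 p65-null and 361 wild-type fragments, Kdr with 29 and 69, and Krt18 with 23 and 0. The part of other cells in the ratios below was not tested.

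Sequences at start sites of the genes are shown first because p65 binds DNA, although its binding was not measured. RefSeq promoter windows (GRCm38.p6), each from 250 bases before to 50 bases after a start site, were matched for 5 of the members, Fbn1, Mfap2, Emilin1, Fbln2 and Fbln5, in 7 windows. On either strand, the NF-kB recognition sequence known as the kB consensus occurred in 1 of the 7 windows, at the downstream start of Mfap2, at position -184 counted from that start, and in 4.51% of all 32851 windows. The GC box GGGCGG occurred in 4 of the 7 windows and in 35.7% of all windows. The letters TATAAA, the CArG box bound by serum response factor and the AP-1 site TGANTCA were in 0 of the 7, against 13.6%, 1.63% and 7.81% of all windows. A match is a string of letters and shows no binding. The stretches below lie outside exons of coding transcripts and read 5′ to 3′ on the strand of the gene, and capitals mark the kB consensus and the GC box, which do not overlap.
Mfap2 downstream start, chr4:141010483-141010643, plus strand: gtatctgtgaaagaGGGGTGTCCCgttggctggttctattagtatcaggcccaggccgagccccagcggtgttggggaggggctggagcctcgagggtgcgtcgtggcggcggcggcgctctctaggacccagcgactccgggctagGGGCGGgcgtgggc
Mfap2 upstream start, chr4:141010174-141010417, plus strand: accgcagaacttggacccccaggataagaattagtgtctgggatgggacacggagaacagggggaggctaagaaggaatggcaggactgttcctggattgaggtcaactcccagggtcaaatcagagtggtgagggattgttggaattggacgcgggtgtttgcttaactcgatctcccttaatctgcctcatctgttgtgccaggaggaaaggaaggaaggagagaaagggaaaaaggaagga
Fbln5 upstream start, chr12:101819120-101819369, minus strand: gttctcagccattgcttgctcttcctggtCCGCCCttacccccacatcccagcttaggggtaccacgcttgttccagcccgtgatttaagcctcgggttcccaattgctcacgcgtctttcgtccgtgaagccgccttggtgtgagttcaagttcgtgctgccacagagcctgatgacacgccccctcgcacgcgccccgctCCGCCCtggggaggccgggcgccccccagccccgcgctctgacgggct
In the downstream Mfap2 stretch the first run of capitals is the kB consensus and the second the GC box. That stretch lies within the bounds of Mfap2 given below, after the upstream start, and not before the gene. The upstream Mfap2 stretch holds none of these motifs, and in the Fbln5 stretch both runs are GC boxes.

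Most of these genes had higher RNA levels in p65-null MEFs, and Mfap4, Mfap5, Fbn2 and Mfap2 stood furthest apart. Of the 10 members, 9 had more normalised fragments in p65-null MEFs and 1, Lox, had fewer. The expression minimum, a mean of 1 CPM over both libraries, was met by 9 members, of which Mfap4 and Mfap5 met it through the p65-null library alone, and Eln fell below it. Of the 9 genes that were measured, 5 had at least 2-fold more RNA in p65-null MEFs, against 12.2% of all 12135 measured genes, and 0 were at least 2-fold lower, against 13.7%. At least 4-fold differences were found for 4 members, Fbn2, Mfap2, Mfap4 and Mfap5, against 4.38% of measured genes. None was 4-fold lower, against 3.50%. For the same 4 members the counting interval lay wholly past 2-fold on the higher side, against 7.95% of measured genes, and for 0 members on the lower side, against 9.10%. The median log2 ratio of the 9 was 1.03, and that of all measured genes was -0.03. Mfap4 and Mfap5 entered these counts and this median only through the library in which they were high, so nothing further is read from their part. With a minimum of 5 CPM, which leaves both out, 3 of 7 members were at least 2-fold higher, Fbn2, Mfap2 and, at the line, Fbn1.

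**Figure D1:**
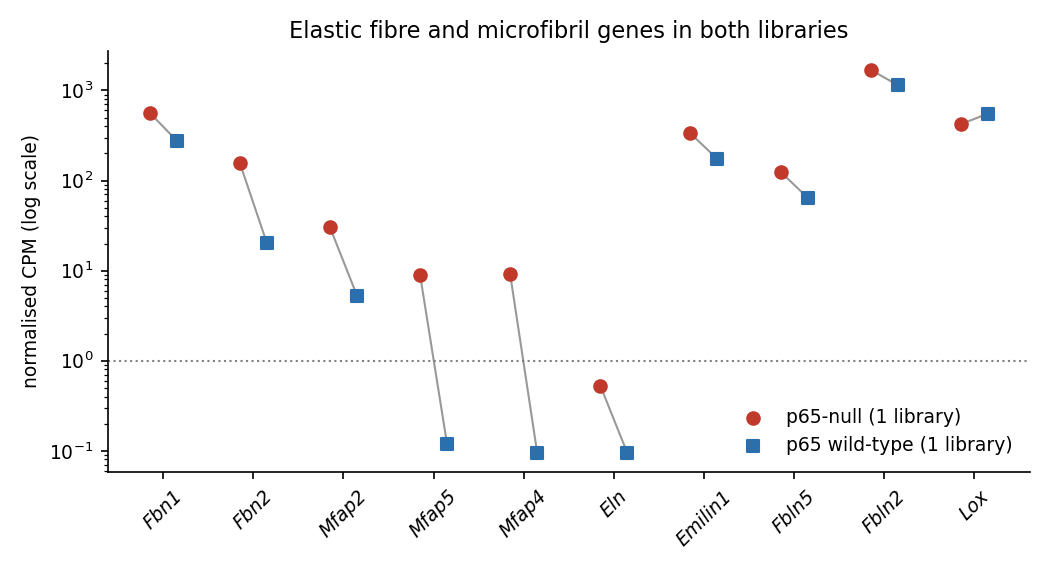
Level of each of the 10 genes in the p65-null (circles) and p65 wild-type library (squares), in normalised CPM on a log scale, 1 library each. The dotted line is 1 CPM: Mfap4 and Mfap5 lie above it in p65-null MEFs alone, Eln lies below it in both, and Lox is the single gene with the lower circle, a direction that turns with a correction for GC content and length.

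The fibrillin genes encode the large glycoproteins that form the body of the microfibril. Positions here and below are on GRCm38. Fbn1 (NM_007993, chromosome 2, 125300594 to 125506485, minus strand, 66 exons) had 8572 fragments, or 566 CPM, in p65-null MEFs and 5877 fragments, or 277 CPM, in wild-type MEFs. It was 2.04-fold higher (1.97 to 2.11), and this ratio sits at the 2-fold line. Fbn2 (NM_010181, chromosome 18, 58008623 to 58210572, minus strand, 65 exons) had 2368 fragments in p65-null MEFs, at 156 CPM, and 429 in wild-type MEFs, at 20.2 CPM. Fbn2 was 7.72-fold higher (6.97 to 8.58), and 97.7% of measured genes had a smaller ratio. The interval of Fbn2 lies wholly above that of Fbn1. A comparison within each library removes library scaling, though not effects of GC content or length: per length, Fbn2 stood at 24.6% of Fbn1 in p65-null MEFs (23.5% to 25.8%) and at 6.51% in wild-type MEFs (5.89% to 7.18%). The share of Fbn2 was thus 3.78-fold higher (3.39 to 4.23) in p65-null MEFs, or 3.56-fold after the GC and length correction. Fbn1 was still the more abundant fibrillin transcript in both libraries. Antisense genes share 2442 of the 12128 exon bases of Fbn1 (Gm9913) and 129 of the 13215 of Fbn2 (Gm26507), and reads from them may be counted here.

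Mfap2 and Mfap5 encode MAGP-1 and MAGP-2, small glycoproteins of the microfibril. Mfap2 (NM_008546, chromosome 4, 141010424 to 141015976, plus strand, 9 exons) had 458.5 fragments in p65-null MEFs and 112 in wild-type MEFs, at 30.3 and 5.28 CPM. It was 5.73-fold higher (4.65 to 7.11), with a log2 ratio of 2.52, or 2.01 once its dependence on GC content and length of the transcripts was removed with a loess curve. The gene is the one whose downstream start carries the kB consensus printed above. Relative to Fbn1, and per length, Mfap2 stood at 49.1% in p65-null MEFs (44.6% to 53.9%) and 17.5% in wild-type MEFs (14.4% to 21.1%), a 2.81-fold difference (2.27 to 3.49). Mfap2 stood further apart between the libraries than Fbn1, and its interval overlaps that of Fbn2. After the GC and length correction these intervals were separate, at log2 ratios of 1.71 to 2.32 for Mfap2 and 2.81 to 3.11 for Fbn2. With Mfap2 and Fbn1 both corrected for GC content and length, a setting added after the data were seen, the difference of Mfap2 relative to Fbn1 was 1.85-fold.

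Mfap5 (NM_015776, chromosome 6, 122513584 to 122529290, plus strand, 10 exons) had nearly all of its fragments in the p65-null library. There were 135.5, at 8.95 CPM, in p65-null MEFs and 2.5 fragments in wild-type MEFs, at 0.118 CPM. The log2 ratio was 6.24 (4.54 to 8.85). The interval is wide because so few wild-type fragments were found. Per length, Mfap5 stood at 21.1% of Mfap2 in p65-null MEFs (17.3% to 25.6%) and at 1.59% in wild-type MEFs (0.261% to 5.22%), so that the MAGPs also differed from each other, by 13.2-fold (4.38 to 140.4), or 21.3-fold after the GC and length correction.

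Mfap4 (NM_029568, chromosome 11, 61485431 to 61488708, plus strand, 6 exons), whose fibrinogen-like protein binds collagen and elastic fibres, had the same pattern. It had 137.5 fragments, at 9.08 CPM, in p65-null MEFs and 2 fragments, at 0.0944 CPM, in wild-type MEFs. The log2 ratio was 6.59 (4.71 to 9.65), and 99.7% of measured genes had a smaller one. Mfap4 and Mfap5 had nearly equal fragment counts in both libraries, and their intervals overlap. In exon sequence, Mfap4 shares 89 of 1922 bases with Mapk7 on the opposite strand, and the sources used here do not say whether reads were counted by strand. Mapk7 had 836 fragments in p65-null MEFs and 768 in wild-type MEFs, a log2 ratio of 0.61.

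**Figure D2:**
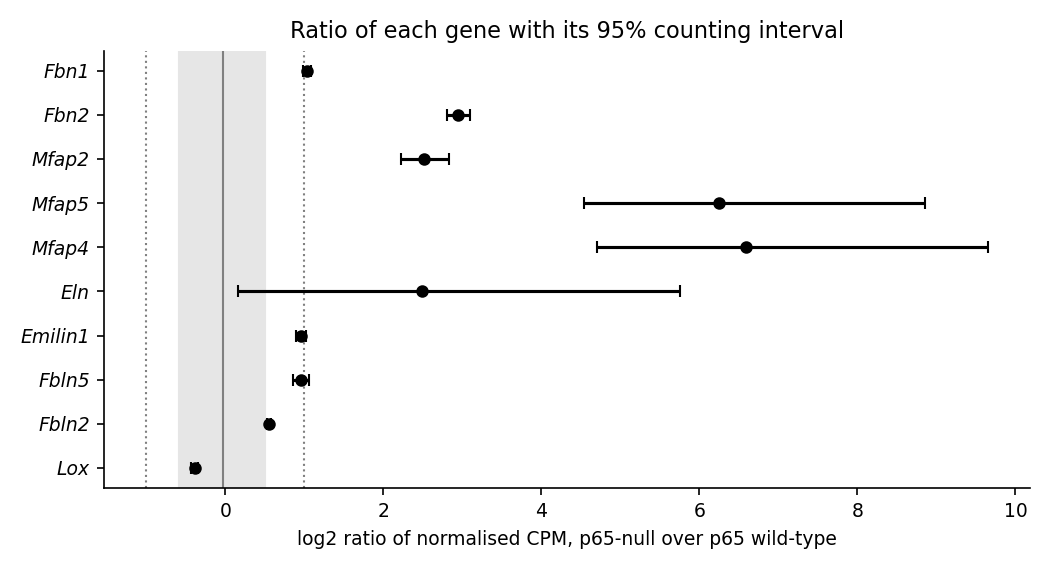
Log2 ratio of normalised CPM, p65-null over p65 wild-type, for each of the 10 genes; bars are 95% counting intervals, dotted lines mark 2-fold, the grey band is the interquartile range of all measured genes and the grey line their median. Mfap4 and Mfap5 lie furthest right with wide intervals, Fbn2 and Mfap2 lie between, and Lox is the one gene left of 0, although it lies right of 0 after the GC and length correction.

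Elastin itself was close to absent. Eln (NM_007925, chromosome 5, 134702595 to 134747368, minus strand, 37 exons), which encodes tropoelastin, the rubber-like core of the fibre, had 8 fragments in p65-null MEFs and 2 in wild-type MEFs, at 0.528 and 0.0944 CPM. The ratio was 5.60-fold, with an interval from 1.12 to 54.1 that spans nearly every size of difference at this depth. On the log2 scale its lower end fell below 0 with ribosomal protein scaling, at -0.31, and after the GC and length correction, at -0.23. Per length, Eln stood at 0.239% of Fbn1 in p65-null MEFs (0.103% to 0.470%) and at 0.0870% in wild-type MEFs (0.0105% to 0.314%). Elastin RNA was thus far below fibrillin RNA in both libraries. An antisense gene, Gm30003, shares 267 of the 8098 exon bases of Eln.

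Genes for proteins that link elastin to cells and microfibrils differed less. Emilin1 (NM_133918, chromosome 5, 30913387 to 30921279, plus strand, 8 exons), which encodes a glycoprotein at the interface of elastin and microfibrils, had 5060 fragments in p65-null MEFs and 3661.5 in wild-type MEFs, at 334 and 173 CPM. It was 1.93-fold higher (1.85 to 2.02). Fbln5 (NM_011812, chromosome 12, 101746565 to 101819119, minus strand, 11 exons), the integrin-binding fibulin-5 needed for elastic fibre assembly in mice, had 1898.5 fragments in p65-null MEFs and 1365.5 in wild-type MEFs, at 125 and 64.4 CPM. Its ratio was 1.95-fold (1.81 to 2.09). These 2 genes and Fbn1 lay within a narrow range about 2-fold, so that which of them passes the line depends on scaling: Fbn1 was at a log2 ratio of 0.97 with total counts, while with upper quartile factors Emilin1 was at 1.06 and Fbln5 at 1.07. After the GC and length correction Emilin1 was at 0.54 and Fbln5 at 1.28. Relative to Fbn1, Emilin1 stood at 151% in p65-null MEFs and 159% in wild-type MEFs, a ratio of 0.947 (0.897 to 1.00), and the ratio was 0.669 after the GC and length correction.

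Fbln2 (NM_007992, chromosome 6, 91212460 to 91272540, plus strand, 18 exons), which encodes fibulin-2, a binding partner of fibrillin-1 and of basement membrane proteins, was the most abundant of the 10 in both libraries. It had 25629.5 fragments in p65-null MEFs and 24399 in wild-type MEFs, at 1692 and 1151 CPM, a 1.47-fold difference. The log2 ratio of 0.56 (0.53 to 0.58) was just above the upper quartile of all measured genes, 0.50. It was 0.19 after the GC and length correction and 0.09 with scaling to 76 ribosomal protein genes, so that the size of this small difference depends on the scaling. Per length, Fbln5 stood at 6.08% of Fbln2 in p65-null MEFs (interval 5.80% to 6.37%), against an interval of 4.35% to 4.85% in wild-type MEFs, a 1.32-fold difference (1.23 to 1.42) that was 2.14-fold after the GC and length correction.

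Lox (NM_010728, chromosome 18, 52516060 to 52529867, minus strand, 7 exons) encodes lysyl oxidase, the copper enzyme that starts the cross-linking of elastin and collagen. It had 6402.5 fragments in p65-null MEFs and 11726 in wild-type MEFs, at 423 and 553 CPM. The log2 ratio was -0.39 (-0.43 to -0.34), but it was 0.17 after the GC and length correction. Its transcript has the lowest GC content of the 10, at 43.9%. No direction relative to the whole transcriptome can be given for it. Relative to Fbn1, and per length, Lox stood at 155% in p65-null MEFs (150% to 160%) and 414% in wild-type MEFs (402% to 428%). Lysyl oxidase RNA per fibrillin-1 RNA was thus 2.67-fold lower (2.55 to 2.80) in p65-null MEFs, or 1.94-fold lower after the GC and length correction. An antisense gene, AC161119.1, shares 30 of the 4778 exon bases of Lox.

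**Figure D3:**
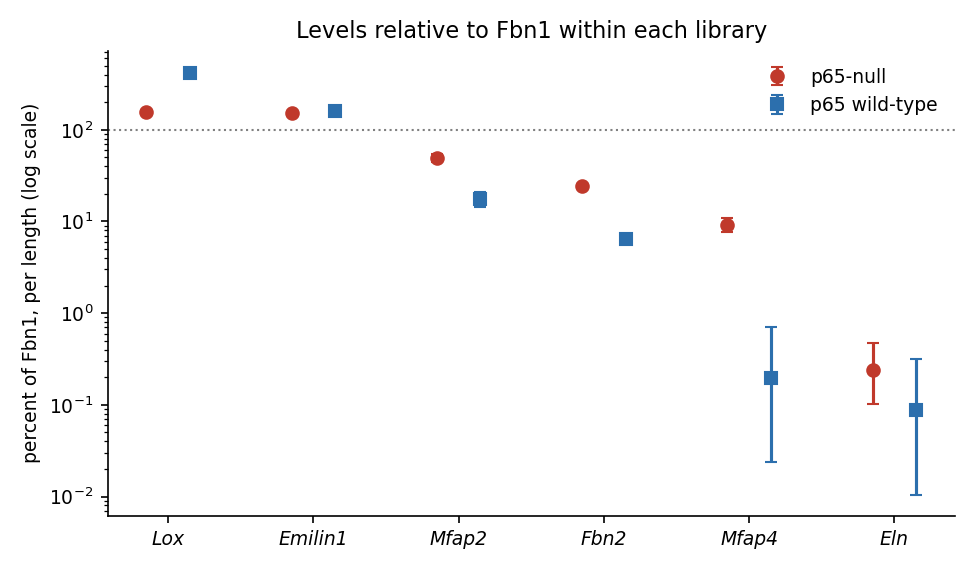
Level of 6 genes per length as a percentage of Fbn1 in the same library, on a log scale, in the p65-null (circles) and p65 wild-type library (squares); bars are 95% counting intervals and the dotted line is the level of Fbn1. Lox is lower and Mfap2, Fbn2 and Mfap4 are higher relative to Fbn1 in p65-null MEFs, Emilin1 is close in both, and the intervals of Eln overlap.

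In CPM per kilobase of transcript (FPKM), the only scale on which different genes are compared here, the summed level of the 10 genes was 662 in p65-null MEFs and 448 in wild-type MEFs. How far these sums lie apart depends on the scaling. The log2 ratio of Fbln2, their largest part, was 0.09 with ribosomal protein scaling and 0.19 after the GC and length correction. Fbln2 made up 53.4% of this sum in p65-null MEFs and 53.7% in wild-type MEFs. Lox made up 13.5% in p65-null MEFs and 26.0% in wild-type MEFs. Fbn1 made up 8.68% in p65-null MEFs and 6.28% in wild-type MEFs, Mfap2 4.26% and 1.10%, and Fbn2 2.14% and 0.409%. The share of Fbln2 was thus nearly equal, that of Lox was lower, and those of the fibrillins and Mfap2 were higher in p65-null MEFs. The most abundant 4 were the same in both libraries, in the order Fbln2, Lox, Emilin1 and Fbn1, at 354, 89.2, 86.7 and 57.5 FPKM in p65-null MEFs and 241, 117, 44.8 and 28.2 FPKM in wild-type MEFs. Lox and Emilin1, neighbours in this order, had overlapping counting intervals in p65-null MEFs and separate ones in wild-type MEFs. Mfap2 was at 28.2 FPKM in p65-null MEFs, above Fbln5 at 21.5, and at 4.92 FPKM in wild-type MEFs, below Fbln5 at 11.1. Fbn2 was at 14.2 FPKM in p65-null MEFs and 1.83 in wild-type MEFs, followed by Mfap5 at 5.94 and 0.0783 FPKM, Mfap4 at 5.27 and 0.0548 FPKM and Eln at 0.137 and 0.0245 FPKM. The intervals of Mfap5 and Mfap4 overlapped in both libraries, and in wild-type MEFs those of Eln overlapped with both.

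The ratios of the members were set beside those of the genes around them, counting measured genes within 1 Mb. The 26 neighbours of Mfap4 had a median log2 ratio of -0.05 and the 8 neighbours of Mfap5 a median of -0.02, while Mfap4 and Mfap5 themselves were at 6.59 and 6.24. None of these neighbours came near them: the highest was at 1.38 near Mfap4 and 1.39 near Mfap5. Fbn2 and Lox lie on chromosome 18, and each had 4 measured neighbours with medians of -0.56 for both genes. The 20 neighbours of Mfap2 had a median of 0.29, and 5 of them were at least 2-fold higher in p65-null MEFs, against 12.2% of all measured genes. Among them were the genes on either side of Mfap2, Atp13a2 at 1.10 and Crocc at 1.16. Such neighbours numbered 2 of 8 near Mfap5, 3 of 15 near Fbln2, 2 of 17 near Fbln5 and 3 of 36 near Emilin1. They numbered 1 of 26 near Mfap4, 1 of 25 near Eln, and 0 near Fbn1, Fbn2 and Lox. Neighbours at least 2-fold lower, against 13.7% of all measured genes, numbered 3 of 12 near Fbn1 and 2 of 4 near Fbn2. There were 4 of 25 near Eln, 3 of 26 near Mfap4, 2 of 36 near Emilin1 and 0 near the other members. The 12 neighbours of Fbn1 had a median of -0.73, against 1.03 for Fbn1. The 15 neighbours of Fbln2, 17 of Fbln5, 36 of Emilin1 and 25 of Eln had medians of -0.07, -0.05, 0.07 and -0.37. Near these genes the highest neighbour lay above the member itself, at 4.81, 4.53, 4.49 and 2.85, as it did near Lox, at 0.12. Near Mfap2, Fbn1 and Fbn2 it lay below the member, at 1.57, 0.68 and 0.89. Each of the 10 members lay above the median of the measured genes around it, Lox, at -0.39, by the least.

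Some genes whose proteins work with the members differed in opposite directions. The lists below hold 4 to 8 measured genes each, and 1 or 2 past 2-fold stand against 12.2% higher and 13.7% lower of all measured genes, so that nothing is read from these counts. The latent TGF-beta binding proteins resemble fibrillins and anchor TGF-beta to microfibrils, and of the 4 genes measured 1 was at least 2-fold higher in p65-null MEFs, Ltbp4 at 3.29-fold (2.95 to 3.67), and 1 lower, Ltbp2 at 2.42-fold (2.31 to 2.52). Their median log2 ratio was -0.34. Ltbp4, which works with fibulin-5 in elastic fibre assembly, was at 73.9 CPM in p65-null MEFs and 22.5 CPM in wild-type MEFs. Among 5 other fibulin and hemicentin genes, 2 were at least 2-fold higher and 0 lower: the hemicentin gene Hmcn1 at 3.85-fold (2.27 to 6.78) and Fbln7 at 13.1-fold (4.72 to 50.6), both under 4 CPM. Both met the expression minimum through the p65-null library alone, Hmcn1 being at 0.944 and Fbln7 at 0.189 CPM in wild-type MEFs. The median of the 5 was 0.79.

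Of 8 genes for other lysyl oxidases and their activation, 1 was at least 2-fold higher and 1 lower in p65-null MEFs, with a median log2 ratio of 0.14. The lower ones numbered 3 with ribosomal protein scaling, at a median of -0.33, and 2 after the GC and length correction, at a median of -0.12. Loxl3, a lysyl oxidase-like gene, was 4.51-fold higher (4.24 to 4.79), at 294 CPM in p65-null MEFs and 65.1 CPM in wild-type MEFs. Tll1, which encodes a tolloid-like protease, was 7.45-fold lower (6.23 to 8.98). Of 6 measured ADAMTS and ADAMTS-like genes, a group whose proteins include fibrillin binders, 2 reached 2-fold on the higher side and 0 on the lower, with a median of 0.42, or -0.05 with ribosomal protein scaling. They were Adamtsl1 at 9.37-fold (6.65 to 13.6) and Adamtsl4, whose protein binds fibrillin-1, at 2.81-fold (2.42 to 3.26).

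Enzymes that can cut elastin had 2 of 6 measured genes at least 2-fold higher and 1 at the line on the lower side, with a median log2 ratio of 0.67. The gelatinase gene Mmp9 was 12.4-fold higher (9.99 to 15.6), at 53.3 CPM in p65-null MEFs and 4.29 CPM in wild-type MEFs. The cathepsin K gene Ctsk had 165 fragments in p65-null MEFs and 3 in wild-type MEFs, a log2 ratio of 6.27 (4.69 to 8.56), and met the expression minimum through the p65-null library alone. Ctsl lay at the 2-fold line on the lower side (interval 1.93-fold to 2.08-fold lower), and was at -0.89 on the log2 scale with upper quartile factors. Ligands known to be held by microfibrils or latent complexes were split, with 2 of 6 measured genes at least 2-fold higher and 2 lower and a median of 0.51. The higher ones were Tgfb3 at 3.65-fold (3.41 to 3.91) and Tgfb2 at 3.09-fold (2.53 to 3.78), and the lower ones were Inhba, an activin subunit gene, at 3.31-fold (2.76 to 4.0) and Gdf5 at 9.53-fold (4.56 to 23.4), which met the minimum through the wild-type library alone.

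**Figure D4:**
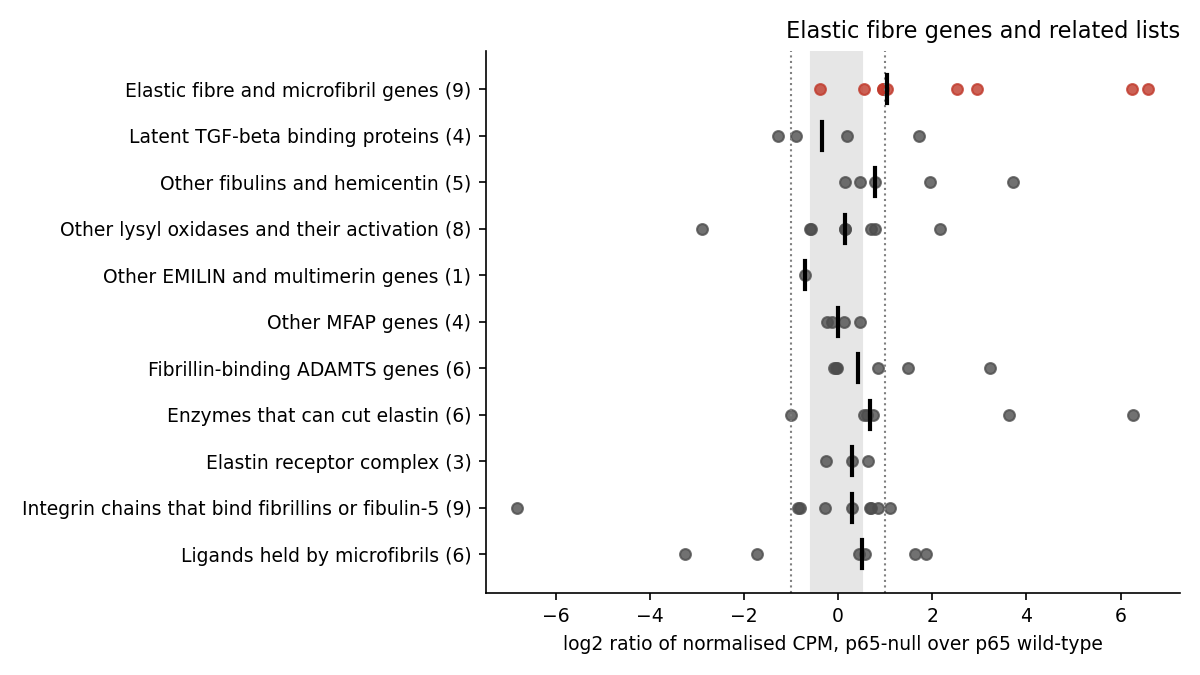
Log2 ratio of normalised CPM, p65-null over p65 wild-type, of each measured gene (points) in the elastic fibre and microfibril list (red) and in 10 related lists (grey), with the number measured in brackets; black bars are list medians, the grey band the interquartile range of all measured genes and dotted lines 2-fold. The red list has its median at 1.03 and 1 point below 0, Lox, which lies above 0 after the GC and length correction.

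Markers of cells that make elastic fibres also differed between the libraries. Of the 10 fibroblast markers, 4 were at least 2-fold higher in p65-null MEFs, Col1a1, Col1a2, Col3a1 and Col5a1, and 1 lower, Thy1 at a log2 ratio of -3.10. The shares over all measured genes were 12.2% higher and 13.7% lower. With ribosomal protein scaling 1 of the 10 fibroblast markers was higher and 2 were lower. After the GC and length correction 2 were higher and 1 was lower, with Col1a1 and Col5a1 each at a log2 ratio of 0.83. Of the 6 smooth muscle and myofibroblast markers, Acta2 made up most of the sum, at 2997 CPM in p65-null MEFs and 2190 CPM in wild-type MEFs, with a log2 ratio of 0.45. Of the other measured ones, Tagln was at -0.64, Cnn1 at -4.67 and Actg2 at -5.07. Below the expression minimum, Des had 16.5 fragments in p65-null MEFs and 4 in wild-type MEFs, and Myh11 had 6 in each. Of the 3 measured cartilage markers, Col2a1 was at 2.05, Sox9 at -0.34 and Acan at -5.42. The part of cell state in the ratios of the elastic fibre genes was not tested.

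Library scaling moved the members together. With ribosomal protein scaling the median of all measured genes shifted by -0.47 and the members at least 2-fold higher numbered 4, and with upper quartile factors the shift was 0.11 and they numbered 7. Of all genes at least 2-fold apart, 46.9% were higher in p65-null MEFs, against 20.1% with ribosomal protein scaling. Fbn2, Mfap2, Mfap4 and Mfap5 stayed past 2-fold in each of the 9 settings tried on single genes, with lowest log2 ratios of 2.48, 2.01, 5.61 and 5.42. Transcript GC content, which the log2 ratio followed across genes (Spearman 0.44 over 11990 genes, which are not independent replicates), ranged among the members from 43.9% for Lox to 61.1% for Emilin1, with a median of 50.5% over measured genes.

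**Figure D5:**
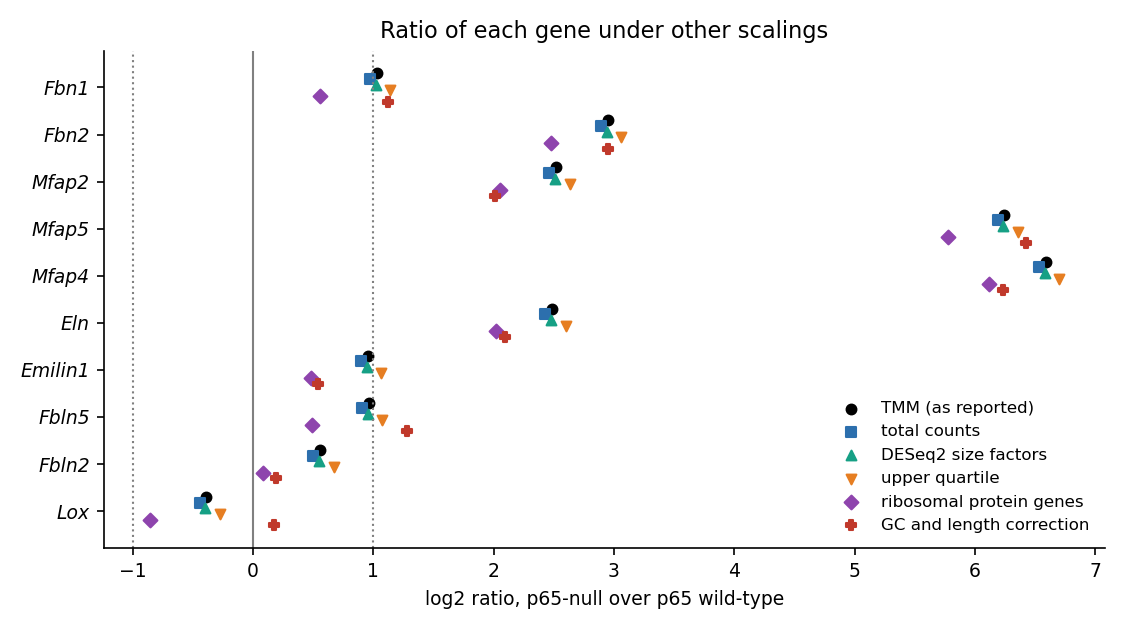
Log2 ratio, p65-null over p65 wild-type, of the 10 genes under the scaling reported and 5 others; dotted lines mark 2-fold. Mfap4, Mfap5, Fbn2, Mfap2 and the barely detected Eln stay right of the 2-fold line, Fbn1, Emilin1 and Fbln5 cross it, and Lox crosses 0 under the GC and length correction. The counting interval of Eln, not drawn, reaches below 0 with ribosomal protein scaling and after the GC and length correction.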

How the data were processed

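RNA of 1 p65-null and 1 p65 wild-type MEF library was sequenced. The submitters' processing notes list, without roles, the tools STAR 2.4, bcl2fastq 2.16, edgeR and HOMER and the build mm10. The counting rule and its use of strand are in none of the sources used here. The table deposited by the authors is named raw counts, but its values are a scaled signal: both columns sum to the same total (18117930 p65-null, 18117934 wild-type) and consist of whole multiples of a step of 0.587 and 0.436. All 10360 and 9259 values of up to 1000 steps came out whole (100%, tolerance 0.0055), and even multiples were in excess (75.7% and 72.8% of values of 1 to 20 steps), so 1 fragment was taken as 2 steps. With 1 library each there are no residual degrees of freedom, so the recovered reads had no count test. Raw counts had been assumed when the design was written.

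RefSeq identifiers were matched to symbols, GRCm38.p6 coordinates and GENCODE M21 transcripts (16743 through the RefSeq gene table, 83 through GENCODE, 55 unmatched, with 3.84% of p65-null and 3.13% of wild-type fragments). Libraries were scaled with edgeR 4.0.16 (R 4.3.3) TMM factors, 0.981 and 1.02. A library at 0 was given 3 fragments as its floor, and ratios with both libraries at or under it were left out. FPKM uses the longest matched GENCODE transcript. Intervals of ratios within a library are Clopper-Pearson, those of FPKM are exact Poisson, and those of a ratio of such ratios are conditional exact on fragments rounded to whole numbers. Fragments carry no molecular tag, and so counting error alone is covered by intervals and floors. Measured genes had a median of 404 p65-null and 599 wild-type fragments. The ratio step was tested on simulated counts.

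The alternatives were upper quartile factors, total counts, scaling to ribosomal protein genes, DESeq2 1.42.0 size factors, loess curves (span 0.3) over GC content and over length, thinning, other minimums, a prior count, interval ends and 1 read per step. The members, lists, tests and alternatives were chosen with earlier results of these data known. The genes named by rule are the 10 members, Rela, and in each related list the measured members at least 2-fold apart. Other genes (neighbouring or overlapping genes, markers, Xist, Kdm5d, Cdkn2a, and Emilin2, Glb1, Neu1, Ctsa and the other MFAP genes within 2-fold) were named after their values were seen. Reads of overlapping genes may be shared.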

Additional observations from a re-analysis of the deposited data

How the results depend on the processing

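With 9 of the 10 genes measured, 5 were at least 2-fold higher in p65-null MEFs, and between 4 and 7 in 10 of the other 12 settings; 6 of 10 were with no expression minimum, and 3 of 7 with a minimum of 5 CPM, which leaves out Mfap4 and Mfap5. In the 13 settings 0 were at least 2-fold lower. Lox, at -0.39, turned to 0.17 with the GC and length correction, whose construction removes a trend with GC content. No other member changed sign in the 9 settings run on single genes. Over all measured genes, 1475 were at least 2-fold higher and 1667 lower; the higher ones numbered 834 with ribosomal protein scaling, 2230 with no minimum, 924 with a minimum of 5 CPM and 965 where the whole interval had to pass, and the lower ones 3306 with ribosomal protein scaling, 1110 with the GC and length correction and 1104 by whole intervals. The cause of the shift between scalings was not tested. Depth limits Eln, Mfap4 and Mfap5, whose wild-type levels rest on 2, 2 and 2.5 fragments. No paired analysis was possible because each genotype has 1 library.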

Other observations

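Integrins and the elastin receptor complex tie elastic fibre proteins to the cell surface. Of 9 measured integrin chain genes, against 12.2% of all measured genes higher and 13.7% lower, 1 was at least 2-fold higher in p65-null MEFs, Itga9 at 2.15-fold (1.65 to 2.81), and 1 lower, Itgb6, whose protein pairs with the alpha v chain and binds latent TGF-beta. Itgb6 had 1 fragment in p65-null MEFs and 157 in wild-type MEFs, a log2 ratio of -6.81 (-12.12 to -4.31). Their median log2 ratio was 0.30, or -0.17 with ribosomal protein scaling, under which 0 were higher and 3 lower. The genes of the elastin receptor complex, Glb1, Neu1 and Ctsa, had log2 ratios of 0.31, -0.25 and 0.65, and Glb1 turned to -0.16 with ribosomal protein scaling.

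The name MFAP covers genes that are not all relatives in sequence. The other 4 genes of that name, Mfap1a, Mfap1b, Mfap3 and Mfap3l, lay between -0.23 and 0.48, against 2.52 to 6.59 for Mfap2, Mfap4 and Mfap5, and Mfap1a, Mfap3 and Mfap3l changed sign with the scaling. After the GC and length correction these 4 lay between 0.26 and 0.96, and Mfap2, Mfap4 and Mfap5 were at 2.01, 6.24 and 6.42. Mfap1a and Mfap1b are near-identical copies whose reads may have been split between them, so their values are uncertain. Emilin2, the 1 measured gene of 4 other EMILIN and multimerin genes looked up, had a log2 ratio of -0.71 (-0.81 to -0.61), while Emilin1 was at 0.95 (0.89 to 1.01).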
